A study of Mus musculus with 2 samples.

Results

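Paneth cells were described here from jejunal droplets rich in the transcripts of lysozyme and of the alpha-defensins, the bactericidal peptides of their granules. A droplet was counted where Lyz1, Gm14851 (an alpha-defensin gene, Defa38 in RefSeq) and the 22 genes with symbols starting Defa made up at least 10% of its unique molecular identifiers (UMIs, each marking 1 captured mRNA molecule). It also had to show 500 or more detected genes, with mitochondrial transcripts at no more than 20% of its UMIs. These 24 genes are called the rule genes below. Of 22282 kept cells, 785 qualified, 269 of 11263 in the control library and 516 of 11019 in the antagonist library. They were split at a rule-gene share of 40% into 184 Paneth-pure droplets (74 control and 110 antagonist) and 601 mixed droplets (195 and 406). Droplets were thus chosen by their measured rule-gene counts, which are given as a description only.

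Paneth cells sit between the Lgr5 stem cells at the base of small intestinal crypts. They store antimicrobial proteins in granules made through a large endoplasmic reticulum, and they supply niche signals such as Wnt3, Egf and Dll4 to the neighbouring stem cells. Wnt signalling through beta-catenin and TCF factors is known to maintain the cells and their position, and FZD5, a Wnt receptor, is known to be needed for their maturation in mouse intestine.

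Both libraries came from jejunum of female Lgr5-eGFP-IRES-CreER mice aged 10 to 12 weeks, a line in which the Lgr5 locus drives the reporter and an inducible Cre, and cells had been sorted for GFP. One library was labelled Fc control and the other FZD5/8 antagonist, each from 3 mice and each captured with V3.1 NextGEM droplet chemistry. The sources used here give neither dose nor duration nor the mouse behind each cell, and the 31053 listed genes do not include the reporter. With 1 library per condition no replicate checks a difference and nothing was tested. Every interval below is an exact 95% interval that covers counting error only, and each comparison is between these libraries, not between the conditions.

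Several Paneth cell granule genes are known Wnt targets in the mouse, so the starts of 4 genes that the results turn on are shown first. They are the abundant alpha-defensin gene Defa30, its relative Gm14851, Lyz1, and Mmp7, which encodes the metalloprotease matrilysin that activates mouse pro-defensins. Each run covers 250 bases before to 50 bases after the gene's start on the gene's own strand, 5′ to 3′, from RefSeq on GRCm38.p6. Capitals mark CTTTGA, a core of the sequence that TCF factors bind, or its reverse complement TCAAAG, and no other motif was searched.
Defa30, chr8:21134400-21134699, plus strand: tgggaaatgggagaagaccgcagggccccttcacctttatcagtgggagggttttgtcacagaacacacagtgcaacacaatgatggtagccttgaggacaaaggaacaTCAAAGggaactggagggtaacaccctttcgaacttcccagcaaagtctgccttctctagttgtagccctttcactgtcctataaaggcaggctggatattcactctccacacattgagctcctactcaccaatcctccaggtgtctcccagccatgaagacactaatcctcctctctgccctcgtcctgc
Gm14851, chr8:21096001-21096300, minus strand: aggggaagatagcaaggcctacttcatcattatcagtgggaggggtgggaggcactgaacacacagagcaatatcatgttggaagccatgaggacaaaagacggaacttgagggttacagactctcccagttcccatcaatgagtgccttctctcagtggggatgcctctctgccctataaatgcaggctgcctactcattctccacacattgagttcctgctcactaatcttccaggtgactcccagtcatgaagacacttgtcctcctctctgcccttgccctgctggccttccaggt
Lyz1, chr10:117292819-117293118, minus strand: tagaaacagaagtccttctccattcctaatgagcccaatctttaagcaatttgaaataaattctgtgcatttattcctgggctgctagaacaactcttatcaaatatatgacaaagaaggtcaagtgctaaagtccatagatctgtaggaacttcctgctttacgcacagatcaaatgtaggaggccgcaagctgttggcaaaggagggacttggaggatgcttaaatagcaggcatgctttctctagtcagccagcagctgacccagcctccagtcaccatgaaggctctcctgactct
Mmp7, chr9:7691840-7692139, plus strand: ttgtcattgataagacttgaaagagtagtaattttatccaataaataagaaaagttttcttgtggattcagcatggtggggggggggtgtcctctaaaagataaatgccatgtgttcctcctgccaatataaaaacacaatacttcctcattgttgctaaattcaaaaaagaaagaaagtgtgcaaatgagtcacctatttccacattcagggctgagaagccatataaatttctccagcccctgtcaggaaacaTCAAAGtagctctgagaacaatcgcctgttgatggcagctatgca
Defa30 held 1 match, at -141 from the start, and Mmp7 held 1 match just after the start, at position 5. Gm14851 and Lyz1 held none in these windows. The motif occurred on either strand in 5257 of the 32851 promoters of the table (16%) and in 13 of the 16 Defa promoters there. A promoter was found for 14 of the 24 rule genes, and none was used for Defa24. All rule genes except Lyz1 (chromosome 10, 117287797 to 117292868, minus strand) lie on chromosome 8 of GRCm38, among them Defa24 (chromosome 8, 21734494 to 21735471, plus strand), Defa30 (chromosome 8, 21134642 to 21135598, plus strand) and Gm14851 (chromosome 8, 21095074 to 21096050, minus strand).

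The 2 libraries differed in depth and in a way the labels do not explain. Deposited barcodes numbered 12672 (67411637 UMIs) in the control and 13085 (55810293 UMIs) in the antagonist library, with medians of 4478 and 2732 UMIs per kept cell. Levels from here on are residual CPM, UMIs of a gene per 1000000 UMIs of a total that leaves out the rule genes. Transcripts of 4 Y-linked genes summed to 68.7 residual CPM in control Paneth-pure droplets and 2.40 in antagonist ones. Xist, the RNA of the inactive X chromosome, stood at 3.12 and 379. The other kept cells showed the same split, with Y-linked transcripts at 112 and 5.98 CPM. The control library therefore went against its label of female mice, and such a difference between the libraries cannot be told apart from the treatment in any result below. No doublet caller was run and no droplet was removed as a doublet. The libraries shared 145 deposited barcodes and 67 kept ones, none of them a counted droplet.

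Counted droplets were a larger share of the antagonist library, with intervals apart for the mixed class. Paneth-pure droplets were 0.657% of kept control cells (0.516 to 0.824%) and 0.998% of kept antagonist cells (0.821 to 1.20%), intervals that just overlap. Mixed droplets were 1.73% (1.499 to 1.99%) and 3.68% (3.34 to 4.05%). The order of the Paneth-pure share depended on the cell filter. With at least 1000 genes per cell it was 0.741% in the control and 0.684% in the antagonist library. The cells had passed a sort gate for GFP and the antagonist library was the shallower one, and the part of either in these shares was not tested.

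The droplets of the 2 libraries were also unlike in depth. Control Paneth-pure droplets had a median of 39706.5 UMIs (1929 to 154138) and antagonist ones 5062 (1424 to 92740). Of them, 36 control and 28 antagonist droplets had a rule-gene share of 70% or more, and these were the deepest, with medians of 65010 and 33097 UMIs. Between 40% and 70% there were 38 control droplets with a median of 22624 UMIs and 82 antagonist droplets with 3884.5. Mixed droplets ran the other way, with medians of 1219 UMIs in the control and 2894 in the antagonist library. The mixed control droplets fell into 139 with fewer than 3000 UMIs, at a median mitochondrial share of 9.87%, and 56 deeper ones at 1.42%. In the antagonist library 215 mixed droplets lay under 3000 UMIs and 191 above, at 2.24% and 2.30%. Neither limit of the rule fell in a gap. The last droplet below 10% and the first above it stood at 9.91% and 10.01% in the control library and at 9.99% and 10.01% in the antagonist library, and around 40% the neighbours were 39.9% and 40.05%, and 39.5% and 40.3%.

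**Figure D1:**
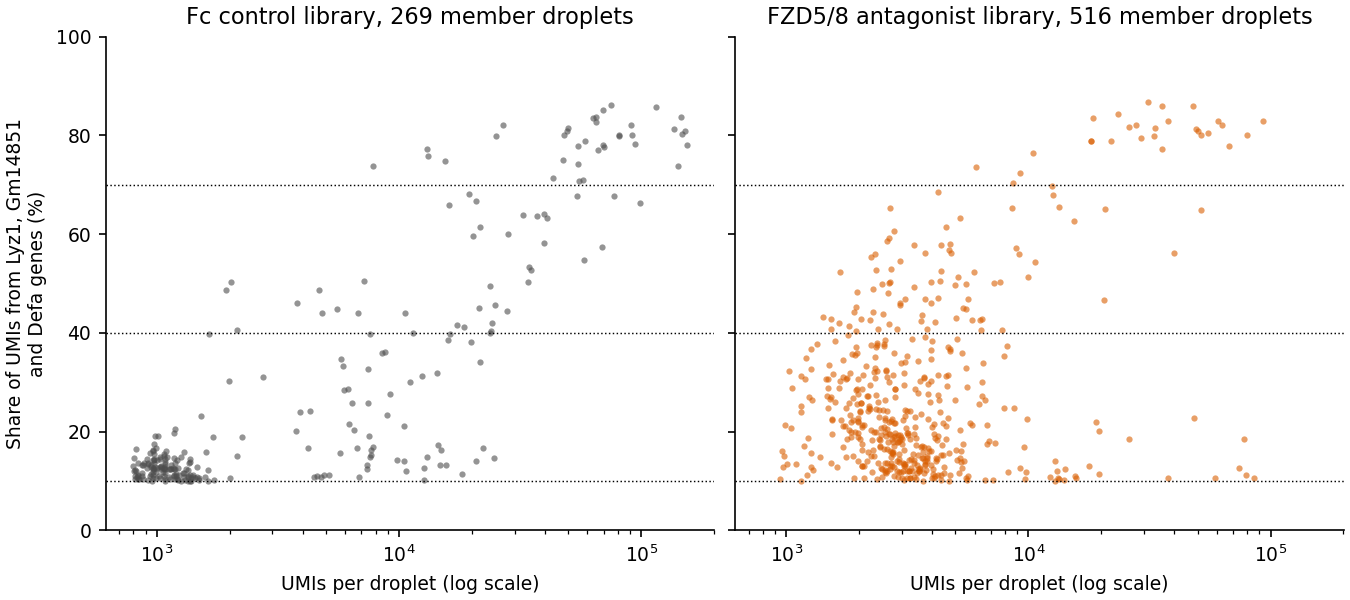
Each point is 1 of the 269 control (left) or 516 antagonist (right) droplets, with total UMIs on a log axis and the share of UMIs from the 24 rule genes in percent, and dotted lines mark 10%, 40% and 70%. The control droplets form a shallow group low in share, a deep group above 40% and, between 10% and 40%, a set of 56 droplets of 3000 UMIs or more. The antagonist droplets run from about 10% upward at lower depth before reaching a deep group above 70%.

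The label was checked against the 3 given markers that the rule did not use, Mmp7, Ang4 (a bactericidal angiogenin) and Itln1 (an intelectin, a lectin that binds microbial glycans). Each droplet was thinned to 1000 UMIs outside the rule genes, which left out 1 control and 7 antagonist Paneth-pure droplets. At that depth at least 2 of the 3 markers were seen in all 73 control and in 91.3% of 103 antagonist Paneth-pure droplets. They were seen in all 36 control and 28 antagonist droplets at 70% or more. In mixed droplets the figures were 66.1% and 55.6%, and in the other kept cells 4.08% and 2.91%. In 168 control and 234 antagonist cells rich in apolipoprotein and Fabp1 transcripts (at least 2% of UMIs; median depths of 6464.5 and 4052.5 UMIs before thinning), taken as cells that should lack the markers, they were 1.79% and 0%. A count of 0 allows a share of up to 1.79% of those control and 1.28% of those antagonist cells. Paneth-pure droplets thus carried markers that had no part in choosing them, at shares far above those of cells that should lack them. All markers of T cells, B and plasma cells, stromal and endothelial cells were at 0 UMIs in Paneth-pure droplets of both libraries, which allows up to 3.12 residual CPM of each in the control and 7.20 in the antagonist library. Of 5 myeloid markers, 3 were at 0 in the control and 4 in the antagonist library, and the list summed to 16.6 and 14.4 CPM.

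Outside the rule genes, several transcripts that stood highest in Paneth-pure droplets relative to other kept cells are known granule and exocrine genes. The chemistry captures 3′ ends, 1 UMI per molecule, so no length scaling was applied. Ranked by the smaller of the 2 libraries' ratios to other kept cells, the first 15 genes were Gm15293, Gm7861, Gm7849, AY761184, Ang4, Mptx2, Gm15292, Clps, Pnliprp2, Itln1, Nupr1, Reg4, Fam46c, Mmp7 and Rnase1. Mptx2 encodes a mucosal pentraxin, Clps the colipase that anchors pancreatic lipase, Pnliprp2 a lipase, and Reg4 a secreted C-type lectin. Their ratios ran from 252-fold for Gm15293 to 33.9-fold for Rnase1, as a description of droplets that were chosen to differ. AY761184 (chromosome 8, 21702519 to 21703645, minus strand) overlaps Defa39 of RefSeq and is an alpha-defensin gene that the rule misses by its name. It held 33.9% of the residual UMIs of control and 24.9% of those of antagonist Paneth-pure droplets, and so moves every residual level. At a rule-gene share of 70% or more it held 37.5% and 36.5%.

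Among the rule genes, Defa24 and Defa30 gave most of the transcripts, and their proportions differed between classes of droplet. Of the rule-gene UMIs of Paneth-pure droplets, Defa24 made up 51.9% in the control and 48.7% in the antagonist library, and Defa30 was 23.7% and 27.4%. Gm14851 was 8.46% and 9.21%, Defa29 3.47% and 3.11%, Defa22 2.97% and 3.34%, Defa21 2.36% and 3.21%, and lysozyme (Lyz1) 1.69% and 1.31%. In droplets at 70% or more the libraries were close, with Defa24 at 47.9% and 46.5% and Defa30 at 26.5% and 28.1%. In mixed droplets they were apart, with Defa24 at 74.5% in the control and 53.9% in the antagonist library.

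The split of the mixed droplets came from the deeper control ones. In mixed droplets of 3000 UMIs or more Defa24 was 78.8% and 54.0%, Defa30 6.59% and 23.3% and Gm14851 1.65% and 10.2% in the control and antagonist library. Under 3000 UMIs the 2 libraries were nearer, with Defa24 at 49.5% and 53.5% and Defa30 at 27.1% and 27.6%. In the other kept cells, where the rule genes were a median of 0.777% and 0.388% of UMIs, Defa24 was 52.2% and 56.0% of them. A Defa24 share like that of the deeper control mixed droplets was found in cells rich in goblet cell transcripts (Muc2, Tff3, Fcgbp, Clca1 and Agr2 at 1% of UMIs or more, 267 control and 376 antagonist cells, a gate set after these values were seen). There Defa24 was 75.5% and 74.9% and Defa30 10.4% and 13.5%. These genes are near copies. Over the last 200 bases of their transcripts, Defa24 is 97.5% identical to Defa30 and 93.5% to Defa17, and Defa22 98.5% to Defa21, so the split of reads between copies is uncertain.

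**Figure D2:**
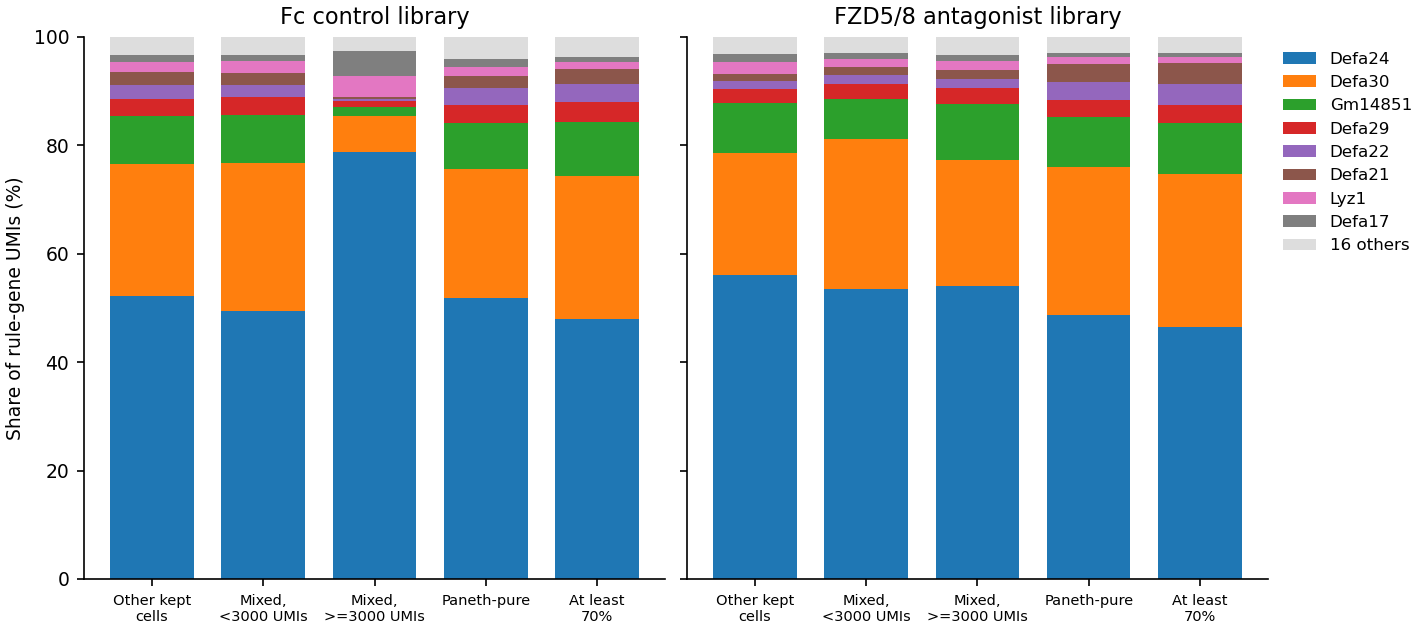
Stacked bars give the percentage of rule-gene UMIs from each of 8 rule genes and from the other 16 together, for other kept cells, mixed droplets under and above 3000 UMIs, Paneth-pure droplets and those at 70% or more, by library. Defa24 takes 78.8% in the deeper control mixed droplets and 46.5 to 56.0% in the other bars.

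Paneth-pure droplets of the 2 libraries were compared on 4682 genes with at least 20 UMIs over both, and a gene was counted as 2-fold apart after adding 0.5 to each sum. The levels of most were higher in the antagonist library, by a median of 0.37 on the log2 scale, and lists are also given relative to this median gene. Ratios are antagonist over control, with their interval. Of these genes, 780 (16.7%) were at least 2-fold higher in the antagonist library and 142 (3.03%) at least 2-fold lower. Relative to the median gene the split was 330 (7.05%) higher and 359 (7.67%) lower. With the defensin-like and granule genes also taken out of the total it was 238 and 477. The direction of a small difference therefore depends on the scale. The minimum was over the sum of both libraries, so a gene could reach it through the library where it stood higher, and counts over sparse lists are no support for a difference. At 70% or more the median was 0.18, and 137 of 2304 genes (5.95%) were higher and 94 (4.08%) lower, or 3.47% and 6.42% relative to the median gene.

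Granule products outside the rule were lower in antagonist Paneth-pure droplets. All 14 measured of 18 stood lower, 4 of them at least 2-fold against 3.03% of all genes, with a median log2 ratio of -0.63 (-1.003 relative to the median gene). Their summed level was 187185 in the control and 116794 in the antagonist library. Of 13 granule genes measured at 70% or more, 1 was 2-fold lower, against 4.08% of all genes, and the median was -0.25.

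Mmp7 was the marker that differed most. Its level was 4192 in the control and 1673 in the antagonist library, and its ratio was 0.399 (0.368 to 0.433). In droplets at 70% or more it was 3964 and 2313, a ratio of 0.584 (0.526 to 0.646). It was thus lower in the antagonist library in both sets, by less in the second. After thinning, 97.3% of control and 67.0% of antagonist Paneth-pure droplets had a Mmp7 UMI (100% and 81.8% unthinned), against 1.79% and 0.427% of the apolipoprotein-rich cells (10.7% and 1.65% unthinned). At 70% or more the thinned shares were 94.4% and 89.3%.

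Ang4 and Itln1 were less apart. Ang4 stood at 13717 in the control and 9722 in the antagonist library, at a ratio of 0.709 (0.684 to 0.734), and of 0.816 (0.785 to 0.849) at 70% or more. Itln1 stood at 62418 and 40479, a ratio of 0.649 (0.637 to 0.660), and of 0.771 (0.755 to 0.787) at 70% or more. Every thinned Paneth-pure droplet of both libraries had an Itln1 UMI. Mptx2 stood at 13448 and 7077 (ratio 0.526, 0.505 to 0.548) and Clps at 7755 and 5631 (ratio 0.726, 0.693 to 0.761). Nupr1, a small stress-responsive chromatin protein, had nearly equal residual levels of 1882 and 1716 (ratio 0.912, 0.835 to 0.995), and at 70% or more its ratio of 1.06 (0.952 to 1.17) lay above 1 on the residual scale and below the median gene.

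The antimicrobial lectins of the Reg3 family were the lowest of the granule list. Reg3g stood at 7807 in the control and 2984 in the antagonist library, at a ratio of 0.382 (0.360 to 0.406), and at 11051 and 4954 (ratio 0.448, 0.418 to 0.480) at 70% or more. Reg3b stood at 875 and 312 (ratio 0.357, 0.294 to 0.429), but at 609 and 537 (ratio 0.882, 0.701 to 1.10) at 70% or more. Reg3g therefore stayed over 2-fold lower in the deepest droplets and Reg3b did not. Reg3g was also present elsewhere. Other kept cells held 1435 and 398, and 58.3% and 35.5% of thinned apolipoprotein-rich cells had a UMI, against 82.2% and 58.3% of Paneth-pure ones. Spink4, a small protease-inhibitor-like peptide shared with goblet cells, stood at 72070.2 and 45025 (ratio 0.625, 0.615 to 0.635), with a ratio of 0.986 (0.962 to 1.01) at 70% or more.

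Over all genes, the lowest ratios by the rule for naming were Olfm4, Reg3b, Bambi, Reg3g, Fxyd3, Ccl9, Mmp7, Gadd45g, Ang and Hdlbp. Ccl9, a chemokine, stood at 283 and 110.4 (ratio 0.390, 0.279 to 0.535), and Ang, a relative of Ang4 among the secreted ribonucleases, at 282 and 122 (ratio 0.434, 0.315 to 0.587). In droplets of 2000 to 10000 UMIs the direction of Ang turned, with a log2 ratio of 0.25. Rnase1, another secreted ribonuclease, stood at 3256 and 1560.3 (ratio 0.479, 0.440 to 0.522). Fxyd3, a regulator of the sodium pump, stood at 452 and 173, Gadd45g, a stress-inducible growth regulator, at 359 and 156, and Hdlbp, an RNA-binding protein, at 481 and 226.

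**Figure D3:**
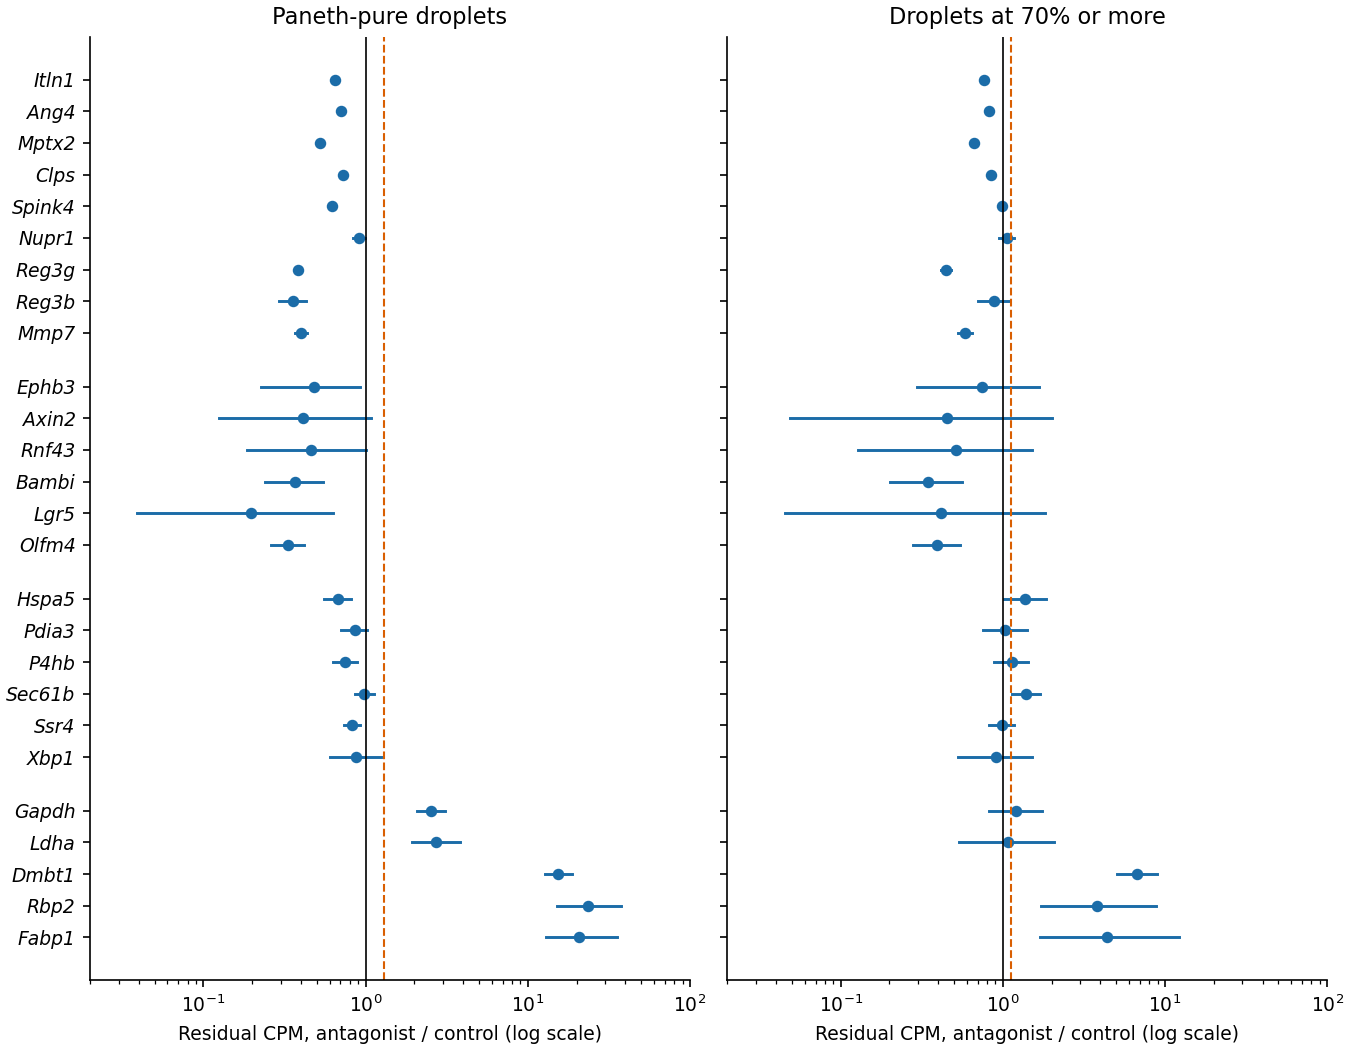
Ratios of residual CPM, antagonist over control, on a log axis with exact 95% counting intervals, for granule, Wnt-linked, secretory pathway and other genes in Paneth-pure droplets and in those at 70% or more. The black line marks equality and dashed lines the median gene. The Wnt-linked genes drawn are Ephb3, Axin2, Rnf43, Bambi, Lgr5 and Olfm4, some of them named for low ratios here. Myc, Ccnd1 and Sox9 of the Wnt target list are not drawn, and 3 of its 12 measured genes stood higher in Paneth-pure droplets. Mmp7, Reg3g, Bambi and Olfm4 lie below equality in both sets, and Dmbt1, Rbp2 and Fabp1 lie above it in both. The secretory pathway genes lie nearer to equality, with Hspa5 below it in Paneth-pure droplets and above it at 70% or more.

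Several Wnt target genes stood lower in antagonist Paneth-pure droplets, mostly at low counts. Of 12 measured of 21 targets, 6 were at least 2-fold lower and none 2-fold higher, against 3.03% and 16.7% of all genes, but 5 of the 12 reached 20 UMIs in the control library alone. The median log2 ratio was -0.58 (-0.95 relative to the median gene). The lists overlap, with Mmp7 counted here and among the granule genes, and Lgr5 here and among the stem cell markers. Mmp7 gave 4192 and 1673 of the summed 4875 and 2223 of the Wnt target list. In the droplets at 70% or more, 1 of 7 was lower, against 4.08%, and the median was -0.36. Of these 7 genes, 5 reached 20 UMIs in the control library alone. Lgr5, the R-spondin receptor that marks stem cells, had 35 UMIs in control and 3 in antagonist Paneth-pure droplets, levels of 36.4 and 7.20 and a ratio of 0.198 (0.0389 to 0.627). Axin2, a feedback inhibitor of the pathway, had 28 and 5 UMIs and a ratio of 0.412 (0.124 to 1.08), an interval that reaches above 1. Myc and Ccnd1, targets that drive growth and the cell cycle, had the highest ratios of the list, 1.63 (0.710 to 3.62) and 1.60 (0.989 to 2.57), with intervals that include 1. After thinning, Lgr5 was seen in 1 of 73 control and 1 of 103 antagonist Paneth-pure droplets (1.37% and 0.971%), against 0% and 0% of apolipoprotein-rich cells. Unthinned, 29.7% and 2.73% of Paneth-pure droplets had a Lgr5 UMI, the control ones being deeper. In other kept cells, sorted with them, Lgr5 stood at 70.1 and 3.19 and Axin2 at 146 and 31.1, so both were lower in the antagonist library outside the Paneth-pure droplets too.

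Bambi, a Wnt-linked gene outside the list of targets above, was better covered in these droplets. It was named for its low ratio in these same data, so it is no support for a difference in Wnt targets. It encodes a decoy receptor of TGF-beta signalling, is a known beta-catenin target, and stood at 190.4 in the control and 69.6 in the antagonist library, at a ratio of 0.366 (0.238 to 0.543). At 70% or more it stood at 281 and 97.2 (ratio 0.346, 0.203 to 0.560), the lowest of the ratios that the rule for naming ranks there. In other kept cells it stood at 4.66 and 3.91. Sox9, the transcription factor that Paneth cell formation needs, stood at 190.4 and 173 (ratio 0.908, 0.681 to 1.20), and its ratio of 1.23 (0.828 to 1.80) at 70% or more had an interval that includes 1. Ephb3, the receptor that keeps Paneth cells at the crypt base, had 53 and 11 UMIs and a ratio of 0.479 (0.226 to 0.927), and of 0.744 (0.294 to 1.67) at 70% or more.

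The blocked receptors themselves were barely detected. Fzd5 had 12 and 13 UMIs in Paneth-pure droplets, levels of 12.5 and 31.2 with a ratio of 2.499 (1.05 to 5.99), and in droplets of 2000 to 10000 UMIs the direction turned, with a log2 ratio of -1.80. Fzd8 had 1 UMI in each library. Fzd5 stood at 57.3 and 90.8 in other kept cells. The mRNA of a blocked receptor does not check the treatment. Of 18 Wnt receptors and co-receptors, 8 reached 20 UMIs over both libraries, 5 of them in the control library alone, so no count of lower genes is given for this list. Its summed level was 317 and 307. Fzd9 had 21 UMIs in the control and 0 in the antagonist library, at least 3.03-fold lower against a floor of 3 UMIs over the group. Znrf3, a ubiquitin ligase that removes Wnt receptors, had 20 and 1, a ratio of 0.115 (0.00278 to 0.721), so both genes reached the minimum through the control library. Its relative Rnf43 had 40 and 8, a ratio of 0.461 (0.187 to 0.999).

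Niche signals were too sparse for most comparisons. Only 2 of 13 reached 20 UMIs, and neither differed 2-fold, against 3.03% of all genes lower and 16.7% higher. Wnt3, the main Wnt ligand of Paneth cells, had 55 and 18 UMIs, levels of 57.2 and 43.2 with a ratio of 0.755 (0.417 to 1.31), and of 1.60 (0.804 to 3.07) at 70% or more, and both intervals include 1. Egf had 3 and 1 UMIs and the Notch ligand Dll4 12 and 4.

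Stem cell markers summed to a lower level in the antagonist droplets, 1149 and 485. Of 6 measured of 8, 3 were 2-fold lower and none higher, against 3.03% and 16.7% of all genes, and 3 of the 6 reached 20 UMIs in the control library alone. At a share of 70% or more 1 of 4 was lower, against 4.08%, with sums of 1002 and 501. Of these 4 markers, 2 reached 20 UMIs in the control library alone. Olfm4, a secreted glycoprotein abundant in stem cells, stood at 621 and 206 (ratio 0.332, 0.262 to 0.417) and at 545 and 215 (ratio 0.395, 0.278 to 0.547) at 70% or more. In other kept cells Olfm4 stood at 2482 and 338, and 20.8% and 3.85% of thinned apolipoprotein-rich cells had a UMI, against 30.1% and 21.4% of Paneth-pure ones. Olfm4 was thus lower in the antagonist library both in Paneth-pure droplets and in other kept cells, and the part of free RNA in the Paneth-pure difference was not tested.

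The machinery for making secreted protein differed by less than 2-fold on the residual scale over all Paneth-pure droplets, while some of its genes stood 2-fold lower between 40% and 70%. Of 22 measured unfolded protein response genes and 23 of translocation and the early secretory pathway, none was 2-fold higher or lower. Over all genes 16.7% were higher and 3.03% lower. The medians of the 2 lists were -0.27 and -0.14 on the log2 scale. Relative to the median gene, 2 and 1 were 2-fold lower, against 7.67% of all genes. Between 40% and 70%, 6 of 21 and 4 of 22 were 2-fold lower and none and 1 higher, against 5.46% and 27.9% of all genes, with medians of -0.52 and -0.39. Of these 21 and 22 genes, 9 and 4 had reached 20 UMIs in the control library alone, and 0 and 1 in the antagonist library alone. In droplets at 70% or more 1 of 20 and 1 of 22 were higher, against 5.95%, none was lower, against 4.08%, and the medians were -0.04 and 0.21. Creld2, a secreted isomerase-like protein, had the lowest ratio of the first list at 0.498 (0.234 to 0.967), inside 2-fold once 0.5 is added, and Canx, the membrane chaperone calnexin, the highest at 1.14 (0.846 to 1.52), above 1 on the residual scale and below the median gene. Of the second, Ssr1, a subunit of the translocon-associated complex, was lowest at 0.675 (0.437 to 1.01) and Sar1b, a GTPase of vesicle budding, highest at 1.58 (0.938 to 2.61). Hspa5, the main chaperone of the endoplasmic reticulum, stood at 493 and 331 (ratio 0.672, 0.552 to 0.813), and at 264 and 363 (ratio 1.38, 1.02 to 1.85) at 70% or more, so its direction turned with the share. None of 8 measured secretory lineage transcription factors differed 2-fold over all Paneth-pure droplets, against 3.03% of all genes lower and 16.7% higher. Nor did any of 6 at 70% or more, against 4.08% and 5.95%. Between 40% and 70% 4 of 7 were lower, against 5.46% of all genes, 5 of the 7 having reached 20 UMIs in the control library alone, and their median was -1.05. Xbp1, the factor that expands the secretory apparatus, stood at 124 and 108 (ratio 0.872, 0.605 to 1.24), and Atoh1, which commits cells to the secretory lineage, at 65.6 and 36.0 (ratio 0.549, 0.290 to 0.976), with a ratio of 1.05 (0.370 to 2.63) at 70% or more, above 1 on the residual scale and below the median gene. Of 7 measured zinc handling genes, of interest since Paneth granules hold zinc, 4 reached 20 UMIs in the control library alone. This list had 1 of 7 higher, against 16.7% of all genes, and 1 lower, against 3.03%. The former was Slc39a5, a zinc importer, at 17.7 and 36.0 (ratio 2.04, 0.947 to 4.33). The latter was Slc30a2, the granule zinc transporter, at 51.0 and 19.2 (ratio 0.377, 0.154 to 0.802), and with 27 and 2 UMIs and a ratio of 0.200 (0.0230 to 0.795) at 70% or more.

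Lysosome and autophagy genes (0 of 14 measured) and dissociation and stress genes (0 of 7) showed no 2-fold difference on the residual scale. On that scale 3.03% of all genes were lower and 16.7% higher. Relative to the median gene 3 and none were 2-fold lower, against 7.67% of all genes. Of the 14 lysosome and autophagy genes, 6 had reached 20 UMIs in the control library alone. Only 1 of 7 MHC class II genes reached 20 UMIs in both libraries, and the list summed to 248 and 168. H2-Eb1, which reached it through the control library, had 21 and 2 UMIs, a ratio of 0.220 (0.0250 to 0.899). Interferon response genes had 2 of 7 higher, against 16.7% of all genes, and none relative to the median gene, against 7.05%. The higher of them was Psmb8, a subunit of the immunoproteasome, at 42.7 and 96.0 (ratio 2.25, 1.42 to 3.57). Sct, the hormone secretin, was the 1 measured of 10 enteroendocrine markers, at 182 and 134 (ratio 0.738, 0.536 to 1.003), and none of 9 tuft cell markers reached 20 UMIs.

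Goblet cell markers mostly stood lower over all Paneth-pure droplets, but not at 70% or more. Of 7 measured of 8, 6 stood lower and none of them 2-fold, against 3.03% of all genes. There was 1 marker 2-fold higher, against 16.7%, and relative to the median gene 4 were 2-fold lower, against 7.67%. The median log2 ratio was -0.67, with a summed level of 76741 and 48254 that is mostly Spink4. Of 5 measured at 70% or more 3 stood higher, the median was 0.37, and the sums were 50937 and 51019. The higher gene over all Paneth-pure droplets was Zg16, a lectin of goblet granules, at 23.9 and 67.2 (ratio 2.81, 1.56 to 5.10), and the lowest was Klk1, a kallikrein protease, at 709.7 and 394 (ratio 0.555, 0.465 to 0.659). Muc2, the gel-forming mucin, stood at 886 and 852 (ratio 0.962, 0.848 to 1.09) and at 725 and 998 (ratio 1.38, 1.15 to 1.64) at 70% or more.

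Transcripts of absorptive cells were higher in antagonist Paneth-pure droplets, most of all below 70%. Of 5 measured of 10 enterocyte markers, 4 were at least 2-fold higher, against 16.7% of all genes, 2 of the 5 having reached 20 UMIs in the antagonist library alone, and the list summed to 271 and 2136. At 70% or more 3 of 4 were higher, against 5.95%, at 254 and 553. Between 40% and 70% 4 of 5 were higher, against 27.9% (5.46% lower), at 290.3 and 3536. Of these 5 markers, 3 reached 20 UMIs in the antagonist library alone. Rbp2, the retinol carrier of enterocytes, stood at 23.9 and 559 (ratio 23.4, 15.2 to 37.6), and at 22.8 and 87.0 (ratio 3.82, 1.72 to 8.77) at 70% or more. Fabp1, a fatty acid carrier, stood at 19.8 and 410.5 (ratio 20.8, 12.9 to 35.3), with a ratio of 4.38 (1.68 to 12.2) at 70% or more. Rbp2 was seen in 0% and 33.0% of thinned Paneth-pure droplets, where 0 of 73 allows up to 4.11%, and in 82.1% and 91.5% of apolipoprotein-rich cells. Goblet-rich cells, which should lack it, showed it in 3.38% and 19.0% (median depths of 7394 and 2892 UMIs before thinning), and other kept cells in 7.03% and 41.0%. In other kept cells the list summed to 3898 and 7673, so it was higher in the antagonist library outside these droplets too, and the part of free RNA in the Paneth-pure difference was not tested.

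Dmbt1, a secreted scavenger receptor that binds bacteria, gave the other large difference. It stood at 129 in the control and 1992 in the antagonist library, at a ratio of 15.4 (12.8 to 18.8), and at 137 and 916 (ratio 6.70, 5.07 to 8.94) at 70% or more. It was seen in 16.4% and 73.8% of thinned Paneth-pure droplets and 24.4% and 42.7% of apolipoprotein-rich cells. Other kept cells held 1156 and 3989, where it was also higher in the antagonist library, at a ratio of 3.45. Control Paneth-pure droplets therefore lay below their library's other cells in Dmbt1 and antagonist ones nearer to theirs. The genes with the highest ratios by the rule for naming were Xist, Rbp2, Fabp1, Dmbt1, Glod5, Fam213b, Pclaf, Fabp2, Muc3 and Prelid2. The gene Pclaf, which encodes a replication factor, stood at 52.0 and 348 (ratio 6.69, 4.82 to 9.42), with a ratio of 4.14 (2.55 to 6.78) at 70% or more.

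Glycolysis genes stood higher in antagonist Paneth-pure droplets. Of 10 measured, 5 were 2-fold higher, against 16.7% of all genes, and 2 relative to the median gene, against 7.05%. At 70% or more none of 6 was 2-fold higher, against 5.95%, and whether the difference changed with the share was not tested. Ldha, lactate dehydrogenase, stood at 69.7 and 189.6 (ratio 2.72, 1.94 to 3.82), with a ratio of 1.08 (0.536 to 2.06) at 70% or more, which is above 1 on the residual scale and below the median gene. Of 6 measured cycling markers, 3 were 2-fold higher, against 16.7% of all genes. At 70% or more 1 of 3 was higher, against 5.95% of all genes, and 1 lower, against 4.08%. Of these 3 markers, 2 reached 20 UMIs in the control library alone, and none reached it in both libraries. The lower one was Ube2c, a ubiquitin-conjugating enzyme of mitosis named after its values were seen, at 112 and 46.1. Birc5, the mitotic protein survivin, stood at 20.8 and 72.0 (ratio 3.46, 1.90 to 6.43), and Mki67, the proliferation antigen, stood at 65.6 and 106 (ratio 1.61, 1.07 to 2.41).

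Mixed droplets of the control library were richer in granule, goblet and stem cell transcripts, and those of the antagonist library in enterocyte transcripts. Over 7853 genes the median log2 ratio was 0.04, and 8.44% were at least 2-fold higher and 8.53% lower in the antagonist library. Of 14 granule genes, 9 were lower and 1 higher, and 6 of 8 goblet markers were lower. Sparser lists are given by their summed levels, in the control and then the antagonist library. Enterocyte markers summed to 884 and 5895, stem cell markers to 3068 and 669 and secretory lineage transcription factors to 833 and 269.8. Tuft cell markers summed to 6.84 and 141, from 4 and 220 UMIs. The 10 lowest genes by the rule for naming were Rnase1, Ccl9, Hpd, Guca2a, Ang, Fxyd3, Mmp7, Rgmb, Fam46c and Foxa3. The 10 highest were Xist, Chp2, Gsta1, Rbp2, Car4, Fabp1, Arg2, Spink1, Maoa and Apoa1. Several of the latter, such as Apoa1, Rbp2 and Fabp1, are known enterocyte genes.

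The lower granule and goblet genes came from the deeper droplets. In mixed droplets of 3000 UMIs or more, Mmp7 stood at 3358 and 282 (ratio 0.0840, 0.0745 to 0.0946), Spink4 at 80879.7 and 10075 and Muc2 at 1646 and 258. Agr2, a disulfide isomerase needed for mucin, stood at 8511 and 998, Atoh1 at 121 and 6.64, and Kit, a receptor tyrosine kinase of secretory crypt cells, at 94.2 and 9.13. Of the granule list 11 of 14 were 2-fold lower in the antagonist library and 1 higher, against 7.28% and 12.5% of all genes. The deeper control droplets held Mmp7 near its Paneth-pure level, but Ang4 at 699.9 and Mptx2 at 1074, against 13717 and 13448 in control Paneth-pure droplets. Goblet-rich cells, the gate above, held Mmp7 at 713 and 281, Spink4 at 33652 and 35213 and Ang4 at 201 and 94.0.

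Shares of droplets with a UMI ran the same way. After thinning, 67.9% and 23.6% of the deeper mixed droplets had a Mmp7 UMI, 60.7% and 15.7% a Muc2 UMI, 12.5% and 0.524% an Atoh1 UMI and 12.5% and 0.524% a Kit UMI, in the control and the antagonist library. Unthinned, Mmp7 was seen in 98.2% and 58.6% and Muc2 in 92.9% and 39.3%. In apolipoprotein-rich cells the thinned shares were 0% and 0.427% for Muc2, 0% and 0% for Atoh1 and 1.19% and 0.427% for Kit.

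Under 3000 UMIs the direction of these genes turned. Mmp7 stood at 230.4 and 388 (ratio 1.68, 1.14 to 2.55), Spink4 at 2289.7 and 10337 (ratio 4.51, 4.03 to 5.08) and Muc2 at 36.0 and 231 (ratio 6.43, 2.65 to 20.3), and the goblet markers summed to 2678 and 12425. The granule list had 2 of 12 genes higher and 2 lower, against 9.83% and 15.3% of all genes. The shallow control droplets held Olfm4 at 3398 and Lgr5 at 144, above the 2482 and 70.1 of other control cells, and the antagonist ones held 326 and 8.36. Stem cell markers summed lower in the antagonist library at either depth, at 2317 and 674 above 3000 UMIs and 5479 and 652 below. Enterocyte markers summed higher at either depth, at 850.2 and 6078 and 994 and 5280.1.

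Followed along the rule-gene share, several of these differences were smaller at 70% or more. Spink4 stood at 119897 and 30174 in droplets of 30 to 40%, and at 48249.9 and 47559.8 at 70% or more. Mmp7 stood at 1618 and 241 between 10% and 20%, at 4656 and 677 between 40% and 50%, and at 3964 and 2313 at 70% or more. The control level was highest between 30% and 40%, and the antagonist level was highest in the last bin. Dmbt1 stood at 932 and 3712 between 10% and 20%, at 160.03 and 3609.5 between 40% and 50%, and at 137 and 916 at 70% or more. Rbp2 stood at 71.9 and 1661, 38.1 and 1622 and 22.8 and 87.0 in the same bins. Antagonist droplets between 40% and 50% thus held Dmbt1 and Rbp2 at about the level of antagonist droplets of 10 to 20%, while control droplets held less of both above 40% than between 10% and 20%. The bins above 20% held 9 to 36 control and 12 to 112 antagonist droplets, and droplets of 1 library need not come from equal numbers per mouse.

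**Figure D4:**
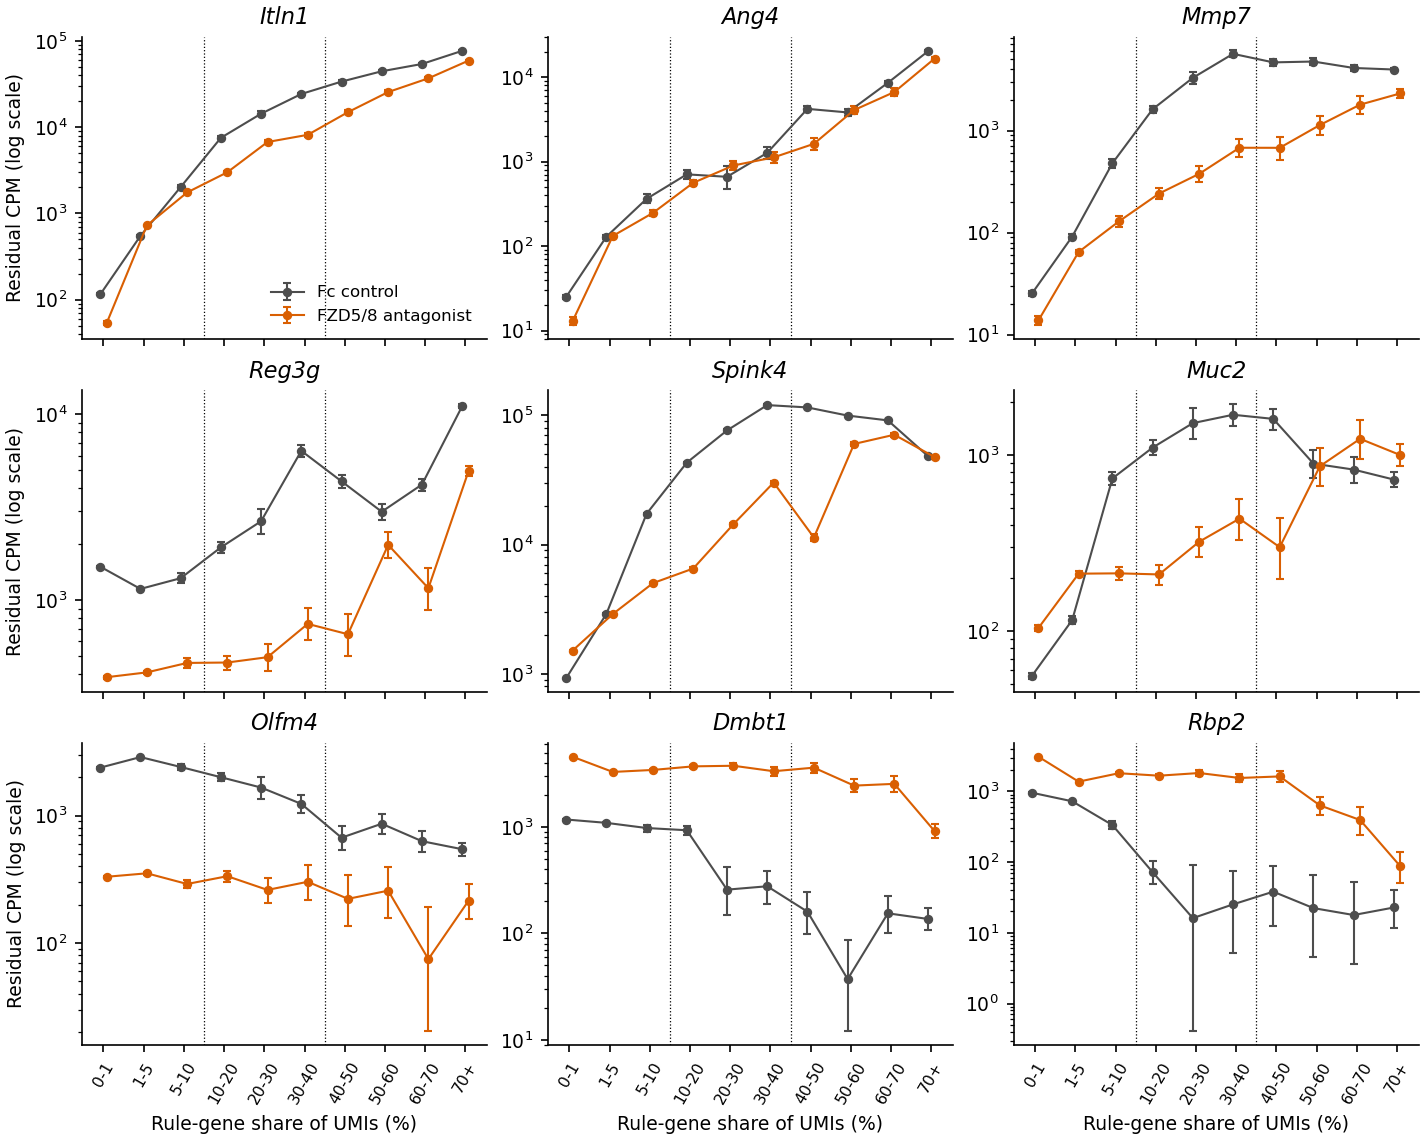
Residual CPM (log axis) of 9 genes against the rule-gene share of the droplet in bins from 0 to 1% up to 70% or more, for both libraries, with exact Poisson 95% intervals and dotted lines at 10% and 40%. Itln1 is higher in each bin than in the one before in both libraries, control Mmp7 is highest between 30% and 40%, and Dmbt1 stays above its control level in the antagonist library in every bin and is lowest there in the last one.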

How the data were processed

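The deposited matrices hold raw UMI counts per gene and barcode. The authors ran Cell Ranger, version 3.1.0 per the file headers, against GRCm38 (mm10) per the submitters' processing notes. The sources used here name neither the barcode calling nor the gene annotation release. The 2 libraries (Fc control and FZD5/8 antagonist) held 67411637 and 55810293 UMIs. Kept cells had 500 or more genes and mitochondrial UMIs at no more than 20%. The members and the 25 gene lists (271 genes, 269 in the files) were chosen with earlier results of these data known.

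UMIs were summed over droplets per library and class and divided by the total without the rule genes (python 3.11.15, numpy 2.4.6, scipy 1.17.1, pandas 2.3.3, matplotlib 3.10.9). Genes with 20 UMIs over both libraries counted as measured, and 2-fold was the limit for a call. Levels have exact Poisson, ratios exact conditional binomial and shares of cells exact (Clopper-Pearson) 95% intervals. Log2 ratios had 0.5 added to each sum, a count of 0 had a floor of 3 counts, and thinning to 1000 UMIs used 1 random draw (seed 7). The calculation was tested on simulated counts. Named between libraries were the 10 highest and 10 lowest ratios at 100 residual CPM and 50 UMIs or more, without gene models, mitochondrial, ribosomal, haemoglobin and immunoglobulin genes. Named against other cells were the first 15. The given markers, niche, Wnt and lineage genes were always taken, and list examples were named at 20 residual CPM or more. Hspa5, Dmbt1, Rnase1, Spink4, Agr2, Kit and Slc30a2 at 70% or more were also named after their values were seen. Positions came from GENCODE M21, which held 30934 of 31053 gene identifiers. Alternatives were other cell filters, membership limits, splits, totals, weights, thinning and count minimums.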

Additional observations from a re-analysis of the deposited data

Results flagged for a closer look

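Barcodes that failed the cell filter, and so entered no comparison, also held rule-gene transcripts. In the control library 186 of 1409 such barcodes had 10 to 40% of their UMIs from the rule genes and 7 had 40% or more. In the antagonist library 53 of 2066 had 10 to 40% and 102 had 40% or more. These 102 barcodes had a median of 1060.5 UMIs and 317 genes, and all of them had fewer than 500 genes. The 186 control barcodes had a median of 680 UMIs. These barcodes were grouped by the rule-gene share itself, so their numbers are a description only, and the part of free RNA in them was not tested.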

How the results depend on the processing

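No paired analysis was possible because each condition has 1 library and the labels carry no replicate numbers, and for the same reason no replicate could be left out. The alternatives that split at 70%, split mixed droplets at 3000 UMIs, widened the rule genes by 6 defensin-like genes or removed AY761184 were chosen after seeing the data. The causes of the shifts below were not tested. Of genes 2-fold higher in antagonist Paneth-pure droplets, the 780 became 473 with the split at 50%, 137 at 70%, 238 without defensin-like and granule genes, 1198 with each cell weighted alike, 293 thinned, 315 at 2000 to 10000 UMIs (9 control and 66 antagonist droplets), 330 centred, and 375 and 3204 with a minimum of 50 UMIs and with none. The 142 lower genes became 94 with the split at 70%, 477 without defensin-like and granule genes, 333 weighted alike, 37 thinned, 359 centred, 34 and 1167 with the 2 minimums, and 218 without AY761184. In mixed droplets the 663 higher genes became 416 thinned, 393 and 1262 with the 2 minimums, and 349 under 3000 UMIs. The 670 lower genes became 1291 and 356 with membership at 5% and 20%, 1363 weighted alike, 375 thinned, and 281 and 2447 with the 2 minimums. The control Paneth-pure share of 0.657% became 0.506% with the split at 50%. The antagonist share of 0.998% became 0.684% at 1000 genes, below the control's 0.741%, 1.63% and 0.626% with the split at 30% and 50%, 1.62% over all barcodes and 1.25% with the wider rule genes. The mixed share of 1.73% in the control became 0.632% at 1000 genes, 1.35% at 10% mitochondrial UMIs, 5.53% and 0.275% at membership of 5% and 20%, and 3.01% over all barcodes. That of 3.68% in the antagonist library became 7.17% and 1.65% at these memberships, and 3.05% and 4.06% with the split at 30% and 50%. The Defa24 share in Paneth-pure droplets was 56.0% and 51.0% weighted alike, 52.6% and 49.0% at 30%, and 51.2% in the control at 50%. In mixed droplets it was 57.2% and 54.1% weighted alike, 72.7% and 52.9% at 50%, 49.5% and 53.5% under 3000 UMIs, and in the control 71.2% at 30% and 78.8% above 3000 UMIs. The direction of log2 ratios turned at 2000 to 10000 UMIs for Ang (0.25) and Fzd5 (-1.80) in Paneth-pure droplets and for the niche median (2.06) in mixed ones, and for the enteroendocrine median at membership of 20% (-2.06) and above 3000 UMIs (-0.046). Mixed droplets under 3000 UMIs turned Ang (0.95), Atoh1 (1.80), Ccl9 (2.29), Dll4 (0.95), Fxyd3 (3.27), Guca2a (2.06), Mmp7 (0.73), Muc2 (2.56), Rnase1 (0.51), the granule median (0.38) and the goblet median (2.38). Of the genes named with a 2-fold ratio, the direction was kept in 396 of 398 comparisons in Paneth-pure and 559 of 568 in mixed droplets. Many of these genes were named for their ratios here, and the alternatives reuse the same droplets. These counts are therefore no support for a difference.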

Other observations

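At a rule-gene share of 70% or more, the genes with the lowest ratios by the rule for naming were Bambi, Olfm4, Lgmn, Ube2c, Reg3g, Eprs, Clca3b, Creg1, Ucp2 and Irf7. Lgmn, the lysosomal protease legumain, stood at 116 and 46.1 residual CPM in the control and antagonist library (ratio 0.398, 0.174 to 0.806), and Irf7, an interferon regulatory factor, at 108 and 56.3 (ratio 0.520, 0.246 to 1.003). The highest were Xist, Dmbt1, Pclaf, Crip1, Mrps16, Minos1, Cycs, Krt8, Eif4a2 and Lgals2. Lgals2, the lectin galectin-2, stood at 1702 and 3997 (ratio 2.35, 2.13 to 2.59), and Cycs, cytochrome c of the respiratory chain, at 144 and 348 (ratio 2.41, 1.71 to 3.39). Krt8, a keratin of simple epithelia, stood at 89.2 and 215 (ratio 2.41, 1.55 to 3.73). Lgals2 stood at 8344 and 16408 in other kept cells.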
